A study of Mus musculus with 12 samples.

Results

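The 4 Dppa genes Dppa2, Dppa3, Dppa4 and Dppa5a and the stem cell marker genes Tcl1, Fbxo15, L1td1, Utf1, Pou5f1 and Sox2 were followed over all 12 arrays of a study of mouse R1 embryonic stem cells. R1 is an established mouse embryonic stem cell line. The 10 genes were taken by symbol from the platform annotation, with 1 probe set per gene, the one with the highest mean over the 12 arrays. They are 10 of 19938 genes with a probe set of their own. Each gene's probe set carried that symbol alone. Dppa2, Dppa3 and Dppa4 had a second probe set, which is described apart. R1 cells carried either a scrambled control or a knockdown of SET (gene Set), a histone chaperone that also inhibits protein phosphatase activity, and the knockdown came as the lines KD1 and KD2. The ESC groups grew on gelatinized dishes in 15% serum with 1000 U/ml of leukemia inhibitory factor (LIF). The RA groups were differentiated for 4 days without LIF, in 10% serum plus 1 µM retinoic acid. The 6 groups were ESC Scrambled, ESC KD1, ESC KD2, RA Scrambled, RA KD1 and RA KD2, with 2 arrays each. The labels call the knockdown and control cells clones, so a difference between lines and an effect of the knockdown cannot be told apart. Retinoic acid, serum and LIF changed together between ESC and RA, so their shares cannot be told apart either.

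Pou5f1 encodes Oct4, and Oct4 and Sox2 are the transcription factors that bind jointly at composite DNA elements to hold embryonic stem cells in the pluripotent state. Utf1, a chromatin-bound transcription factor, and Fbxo15, an F-box protein of ubiquitin ligase complexes, are textbook targets of that pair, and Fbxo15 served as the reporter gene in early reprogramming work. Dppa2 and Dppa4 are neighbouring genes whose SAP-domain proteins bind chromatin together and prime developmental and early embryonic genes. Dppa3, also called Stella or PGC7, is a maternal and germ cell factor that guards DNA methylation in the zygote. Dppa5a encodes a KH-domain RNA-binding protein, L1td1 an RNA-binding protein derived from a LINE-1 element, and Tcl1 a co-activator of the kinase Akt. All are known as genes expressed in undifferentiated embryonic stem cells.

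Promoter windows of the RefSeq table (assembly GRCm38.p6) covered 5 of the 10 genes, namely L1td1, Pou5f1, Sox2, Tcl1 and Utf1. Dppa2, Dppa3, Dppa4, Dppa5a and Fbxo15 had no entry there. The table holds 6 windows for the 5 genes, since Pou5f1 has another one, chr17:35508557-35508806, which is not shown and held 6 CpG and 1 CATTGT on the opposite strand at -158 to -153. The 250 bases upstream of the start site are shown for genes chosen among those with a window. They are the pair Pou5f1 and Sox2, their target Utf1, and Tcl1, the gene with the lowest RA value relative to ESC in scrambled cells. Each runs 5′ to 3′ along the gene's strand. Capitals mark every match, on either strand, to ATGCAAA (octamer core), CATTGT or CTTTGT (SOX elements), GGGCGG (GC box), and AGGTCA or GGGTCA (nuclear receptor half-sites, the class of element that retinoic acid receptors bind). The windows are chr17:35505782-35506031 on the plus strand for Pou5f1, chr3:34649745-34649994 on the plus strand for Sox2, chr7:139943606-139943855 on the plus strand for Utf1 and chr12:105222738-105222987 on the minus strand for Tcl1.
Pou5f1: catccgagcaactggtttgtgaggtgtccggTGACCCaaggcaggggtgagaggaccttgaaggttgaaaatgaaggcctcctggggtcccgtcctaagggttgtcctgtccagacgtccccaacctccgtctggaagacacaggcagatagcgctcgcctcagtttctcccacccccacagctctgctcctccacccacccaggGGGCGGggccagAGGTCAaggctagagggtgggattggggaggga
Sox2: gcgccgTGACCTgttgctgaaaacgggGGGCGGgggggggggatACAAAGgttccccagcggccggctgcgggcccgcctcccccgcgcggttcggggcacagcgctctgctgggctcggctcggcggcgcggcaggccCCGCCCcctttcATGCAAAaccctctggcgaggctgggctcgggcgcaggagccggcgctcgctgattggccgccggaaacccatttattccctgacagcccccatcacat
Utf1: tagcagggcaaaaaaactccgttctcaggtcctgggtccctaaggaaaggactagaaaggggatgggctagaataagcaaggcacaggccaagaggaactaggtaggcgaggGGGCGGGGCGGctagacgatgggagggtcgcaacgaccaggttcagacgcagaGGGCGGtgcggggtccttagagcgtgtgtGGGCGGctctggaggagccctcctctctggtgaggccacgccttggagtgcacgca
Tcl1: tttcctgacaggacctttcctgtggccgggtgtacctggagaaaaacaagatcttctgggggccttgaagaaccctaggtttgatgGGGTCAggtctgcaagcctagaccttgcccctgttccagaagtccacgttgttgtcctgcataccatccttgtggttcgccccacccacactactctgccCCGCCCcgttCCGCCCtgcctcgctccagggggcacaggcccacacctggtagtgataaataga

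GC boxes were the motif that the 4 windows shown shared, whereas the windows not shown, of L1td1 and the other one of Pou5f1, held no GC box. The Pou5f1 window shown had 1 GC box at -45 to -40 from the start site, followed by AGGTCA at -33 to -28, and GGGTCA on the opposite strand. Sox2 had the octamer core at -99 to -93, 1 SOX element of the CTTTGT form, 2 GC boxes and 1 AGGTCA. Utf1 had 4 GC boxes, the first pair of which overlap by 1 base, and none of the other motifs. Tcl1 had 2 GC boxes on the opposite strand and 1 GGGTCA. The L1td1 window held none of the 6 motifs, which says only that these letters are not in it. Among all 32817 windows of the table, 32.7% held GGGCGG, 16.5% CTTTGT, 14.0% AGGTCA, 11.6% GGGTCA, 10.7% CATTGT and 4.13% ATGCAAA. Sox2 was the window richest in CpG of the 6, with 27 CpG dinucleotides, more than in 91.4% of all windows, against a median of 6. Utf1 had 14, L1td1 11, the Pou5f1 window shown 8 and Tcl1 7.

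Array medians lay between 7.17 and 7.24 on the log2 scale of the deposited RMA values, and the number of arrays limits the precision. The probe set of Set shared with BC085271 read 12.93 and 12.71 in ESC Scrambled, 11.87 to 12.15 in the 4 ESC knockdown arrays, 12.27 and 12.29 in RA Scrambled, and 11.16 to 11.99 in the 4 RA knockdown arrays. By this probe set, and by a second one shared with BC085271, the signal was lower in every knockdown array than in both scrambled arrays of the same labelled state. The probe sets of Set alone did not show this in RA, where the first read 6.68 and 6.45 in scrambled and 6.61 to 7.91 in knockdown arrays and the second 5.83 and 6.09 against 6.04 to 7.05. In ESC they read 8.82 and 8.39 against 6.91 to 8.54, and 7.35 and 6.90 against 6.22 to 7.15, so the groups overlapped there too. Of 9 measured retinoic acid response genes, 9 rose from ESC to RA in both scrambled and KD1 cells, so the labelled state was borne out there. In the KD2 line 1 array of each state, replicate 2 by label, went against that label. Over genes other than the 10, the ESC one correlated at a mean of 0.952 with the ESC arrays and 0.986 with the RA arrays, and the RA one at 0.986 with ESC and 0.952 with RA. They are called the displaced arrays here. Results on scrambled and KD1 cells were therefore fitted on those 8 arrays alone, and results on KD2 are given with all 12 arrays as labelled and with the 10 arrays left without the displaced ones. A gene was called when its limma p-value, adjusted by Benjamini-Hochberg over all 19938 genes, was below 0.05.

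**Figure D1:**
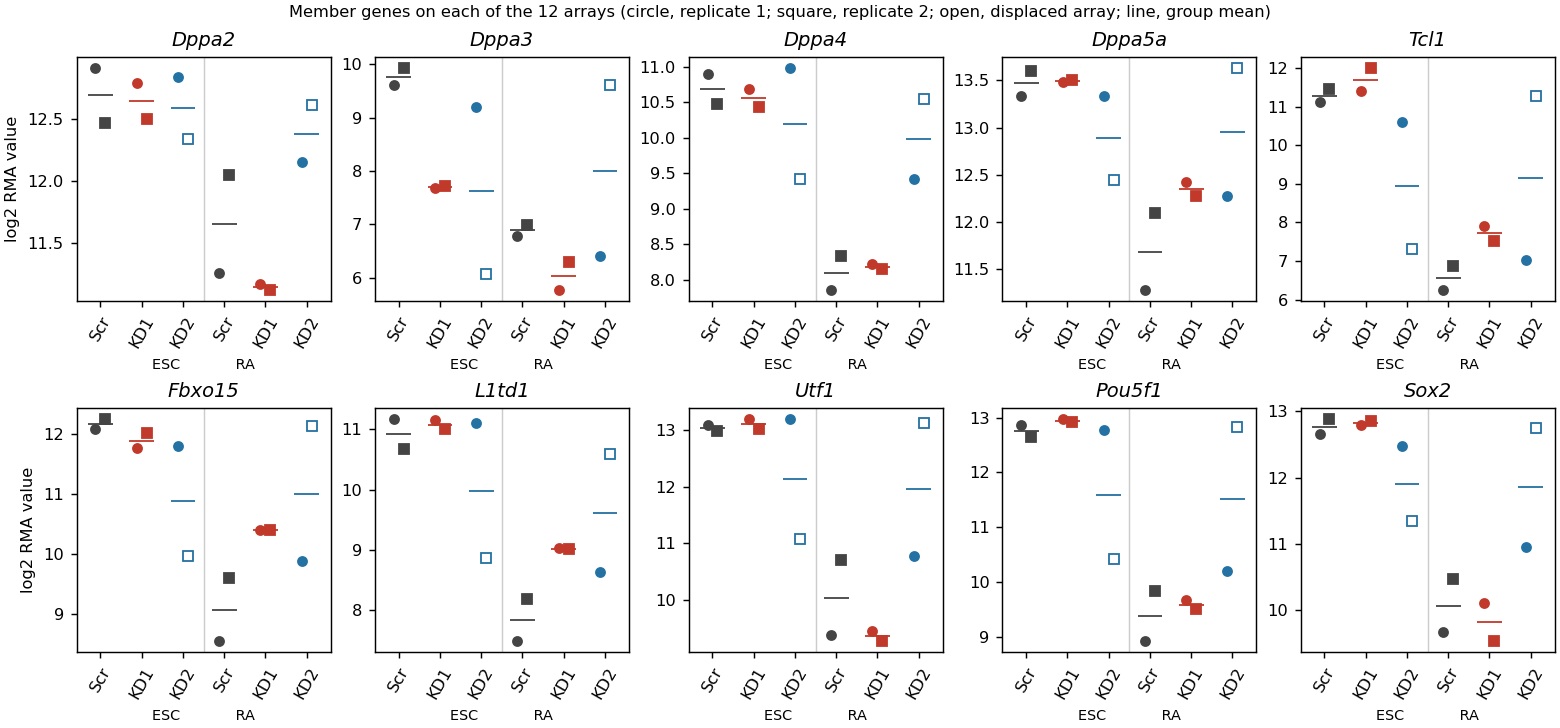
Log2 RMA value of each of the 10 genes (1 panel per gene, vertical axes differ) on the 12 arrays, grouped by line (Scr, scrambled; KD1; KD2) within ESC and RA. Circles are replicate 1, squares replicate 2, open squares the displaced arrays and bars the group means. Scrambled and KD1 arrays of RA lie below those of ESC for every gene. The open squares lie near the other state, except that the open ESC square of Dppa2 (12.34) lies between the states.

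All 10 genes were lower in RA than in ESC, in scrambled cells and again in KD1 cells. By the probe sets used, they ran in scrambled cells from Dppa2, at 48.7% of its ESC level, to Tcl1, which was 26.4-fold lower. The second Dppa2 probe set gave a log2 difference of -1.88 there, beyond the -1.78 of Dppa5a, so the place of Dppa2 rests on the probe set used. In both lines the 2 RA arrays lay below the 2 ESC arrays for all 10 genes, as they did for 37.3% of all genes in scrambled cells and 44% in KD1 cells. In scrambled cells 10 of 10 were called and 10 of 10 were lower, where 42.6% of all genes were called and 20.8% were called lower. KD1 cells also gave 10 of 10, where 41% were called and 20.8% were called lower. The median difference of the 10 genes was -2.94 in scrambled and -2.22 in KD1 cells, beside medians of -0.04 and -0.08 over all genes.

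Pou5f1 and Sox2 fell in both lines. Pou5f1 read 12.86 and 12.65 in ESC Scrambled and 8.92 and 9.84 in RA Scrambled, and 12.97 and 12.92 in ESC KD1 against 9.67 and 9.50 in RA KD1. Sox2 read 12.66 and 12.88 in ESC Scrambled and 9.66 and 10.47 in RA Scrambled, and 12.79 and 12.86 in ESC KD1 against 10.10 and 9.53 in RA KD1. The ESC arrays lay close together and the RA arrays were spread by up to 0.92. Pou5f1, which encodes Oct4, stood at 9.63% of its ESC level in scrambled cells (log2 -3.38, SE 0.24, adjusted p = 8.6e-06) and at 9.77% in KD1 cells (log2 -3.36, adjusted p = 9.14e-06). Sox2 stood at 15.4% (log2 -2.70, SE 0.25, adjusted p = 3.88e-05) and 12.4% (log2 -3.01, adjusted p = 2.26e-05).

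The targets of that pair, Utf1 and Fbxo15, fell too, and Fbxo15 less in KD1 cells. Utf1 read 13.09 and 12.99 in ESC Scrambled, 9.37 and 10.70 in RA Scrambled, 13.19 and 13.02 in ESC KD1, and 9.44 and 9.27 in RA KD1. Its RA Scrambled arrays were further apart than those of any other of the 10 genes, and its RA KD1 arrays lay beside the lower of them. Utf1 fell to 12.5% in scrambled cells (log2 -3.00, SE 0.33, adjusted p = 9.29e-05) and to 7.43% in KD1 cells (log2 -3.75, adjusted p = 2.82e-05). Fbxo15 read 12.07 and 12.24 in ESC Scrambled, 8.56 and 9.60 in RA Scrambled, 11.76 and 12.01 in ESC KD1, and 10.41 and 10.40 in RA KD1. The KD1 arrays of RA lay above both scrambled arrays of RA. Fbxo15 fell to 11.8% in scrambled cells (log2 -3.08, SE 0.27, adjusted p = 2.68e-05) and to 35.8% in KD1 cells (log2 -1.48, adjusted p = 0.00206).

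Among the Dppa genes, the chromatin-bound partners Dppa2 and Dppa4 fell in both lines. Dppa2 read 12.91 and 12.47 in ESC Scrambled, 11.26 and 12.05 in RA Scrambled, 12.79 and 12.50 in ESC KD1, and 11.17 and 11.12 in RA KD1. Dppa4 read 10.90 and 10.48 in ESC Scrambled, 7.86 and 8.34 in RA Scrambled, 10.68 and 10.44 in ESC KD1, and 8.22 and 8.15 in RA KD1. Dppa2 fell to 48.7% in scrambled cells (log2 -1.04, SE 0.23, adjusted p = 0.00614) and to 35.4% in KD1 cells (log2 -1.5, adjusted p = 0.000878). Dppa4 fell to 16.6% (log2 -2.59, SE 0.19, adjusted p = 1.09e-05) and 19.3% (log2 -2.38, adjusted p = 1.84e-05). Whether Dppa4 fell further than Dppa2 was not tested, and the second probe set of Dppa2 gave -1.88 in scrambled and -2.11 in KD1 cells. The second probe set of Dppa4 gave -3.14 and -2.81. Which locus each probe set was designed on is not given in the sources used here.

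Dppa3, the germ cell and maternal factor, and Dppa5a, the RNA-binding protein gene, fell in both lines. Dppa3 read 9.61 and 9.93 in ESC Scrambled and 6.79 and 6.98 in RA Scrambled, but 7.69 and 7.72 in ESC KD1 and 5.77 and 6.30 in RA KD1. Its ESC KD1 arrays lay between the scrambled arrays of ESC and of RA. Dppa3 fell to 13.5% in scrambled cells (log2 -2.89, SE 0.19, adjusted p = 4.97e-06) and to 31.4% in KD1 cells (log2 -1.67, adjusted p = 0.000121). Dppa5a read 13.34 and 13.60 in ESC Scrambled, 11.28 and 12.09 in RA Scrambled, 13.48 and 13.50 in ESC KD1, and 12.42 and 12.28 in RA KD1. It fell to 29.1% (log2 -1.78, SE 0.21, adjusted p = 0.000153) and 45.3% (log2 -1.14, adjusted p = 0.00227). RefSeq lists the pseudogenes Dppa3-ps, Dppa5b and Dppa5c, whose part in these signals cannot be told apart.

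L1td1, the RNA-binding protein gene of LINE-1 origin, and Tcl1, the co-activator of Akt, read higher after RA in KD1 than in scrambled cells. In the limma fit of 8 arrays the difference between the lines in the change from ESC to RA was called for neither. Its adjusted p was 0.131 for L1td1 and 0.359 for Tcl1. L1td1 read 11.17 and 10.67 in ESC Scrambled, 7.49 and 8.19 in RA Scrambled, 11.15 and 11.01 in ESC KD1, and 9.04 and 9.01 in RA KD1. Tcl1 read 11.11 and 11.47 in ESC Scrambled, 6.25 and 6.88 in RA Scrambled, 11.41 and 12 in ESC KD1, and 7.90 and 7.53 in RA KD1. Both genes had all RA KD1 arrays above all RA Scrambled arrays. L1td1 fell to 11.8% in scrambled cells (log2 -3.08, SE 0.23, adjusted p = 1.13e-05) and to 24% in KD1 cells (log2 -2.06, adjusted p = 0.000128). Tcl1 fell to 3.79% (log2 -4.72, SE 0.26, adjusted p = 2.21e-06) and to 6.29% (log2 -3.99, adjusted p = 5.88e-06). Of the 19938 genes, Tcl1 had the lowest log2 difference in scrambled cells (place 1) and was at place 16 in KD1 cells. Both RA Scrambled readings of Tcl1 lay below the array medians, and no detection call or background level was used here. Whether a floor limited these readings was not tested.

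**Figure D2:**
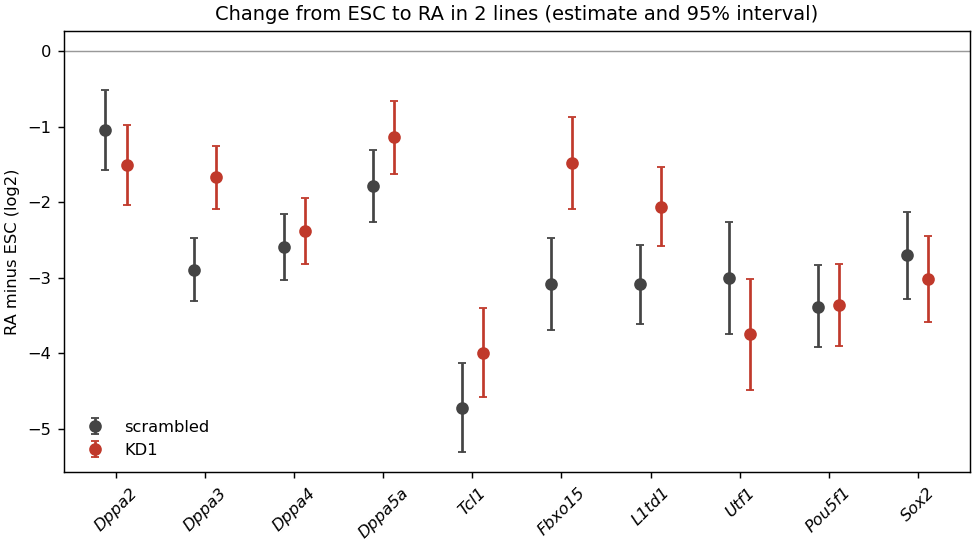
RA minus ESC (log2) for each of the 10 genes in scrambled and KD1 cells, from the fit of 8 arrays; points are estimates and bars 95% intervals. All 20 intervals lie below 0, with Tcl1 lowest at -4.72 and -3.99 and the estimates nearest to 0 being Dppa2 in scrambled cells (-1.04) and Dppa5a in KD1 cells (-1.14). By its second probe set, not drawn, Dppa2 gave -1.88 in scrambled cells.

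With the spread pooled over all 12 arrays, which then includes the displaced ones, 9 of the 10 genes were called lower in scrambled cells, where 5.66% of all genes were, and Dppa3 was lost (adjusted p = 0.0897). In KD1 cells 5 were called, where 4.26% of all genes were, and Dppa3, Dppa5a, Tcl1, Fbxo15 and L1td1 were lost (adjusted p from 0.0741 for Tcl1 to 0.284 for Dppa3).

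Growing KD1 cells differed from growing scrambled cells in 1 of the 10 genes, Dppa3. It read 7.69 and 7.72 in ESC KD1 against 9.61 and 9.93 in ESC Scrambled, so the groups did not overlap, and the arrays of a group lay within 0.32 of each other. Dppa3 fell to 23.8% of the scrambled level, a 4.2-fold difference (log2 -2.07, SE 0.19, 95% interval -2.49 to -1.65, adjusted p = 0.00186), and was at place 9 among the lowest differences of all genes. The second Dppa3 probe set read 9.30 and 9.85 in ESC Scrambled and 7.41 and 7.61 in ESC KD1, a difference of -2.06 (SE 0.21, adjusted p = 0.00347 among 21789 probe sets). The 1 of 10 called compares with 1.94% of all genes called and 1.09% called lower. The median of the 10 genes was 0.04, and that of all genes 0.02.

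The other 9 genes were not called in growing KD1 cells, and their intervals bound what could have been missed. Pou5f1 stood at 0.19 (95% interval -0.36 to 0.73), Sox2 at 0.05 (-0.52 to 0.63), Tcl1 at 0.42 (-0.17 to 1.01, adjusted p = 0.472) and Fbxo15 at -0.27. L1td1 (0.16), Utf1 (0.07), Dppa5a (0.02), Dppa2 (-0.05) and Dppa4 (-0.13) were not called either. Apart from Dppa3, the arrays did not overlap for Fbxo15, lower in KD1, and Pou5f1, higher in KD1. Non-overlap in these directions was seen in 18.9% and 26.3% of all genes. With the spread pooled over 12 arrays 0 of the 10 genes were called (Dppa3 adjusted p = 0.722), where 0.0652% of all genes were called. An unadjusted p below 0.05 was seen in 0 of the 10, against 1507 of all 19938 genes.

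After RA, the 10 genes split between KD1 and scrambled cells. Tcl1, Fbxo15 and L1td1 were higher in KD1, Dppa3 was lower, and the remaining 6, Pou5f1 and Sox2 among them, were not called. In all 4 of 10 were called, 3 higher and 1 lower, where 12.1% of all genes were called, 5.39% higher and 6.69% lower. Fbxo15 was 2.51-fold higher (log2 1.33, SE 0.27, 95% interval 0.72 to 1.94, adjusted p = 0.0132). L1td1 was 2.28-fold higher (log2 1.19, SE 0.23, 0.66 to 1.71, adjusted p = 0.011) and Tcl1 2.22-fold higher (log2 1.15, SE 0.26, 0.56 to 1.74, adjusted p = 0.0217). Dppa3 stood at 55.4% of scrambled (log2 -0.85, SE 0.19, -1.27 to -0.43, adjusted p = 0.0181). The second Dppa3 probe set gave -0.29 (adjusted p = 0.494), and the mean of both probe sets -0.57 (adjusted p = 0.101), so this call rests on the probe set used.

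Of the uncalled genes in RA, Dppa5a stood at 0.67 (95% interval 0.19 to 1.14, adjusted p = 0.0795), Dppa2 at -0.51 (-1.04 to 0.02, adjusted p = 0.225) and Utf1 at -0.68 (-1.42 to 0.06, adjusted p = 0.252). With the replicate number as a block within each state, Dppa5a (adjusted p = 0.0164) and Dppa2 (adjusted p = 0.0342) were called as well. Pou5f1 stood at 0.21 (-0.33 to 0.75, adjusted p = 0.686), Sox2 at -0.25 (-0.82 to 0.32, adjusted p = 0.632) and Dppa4 at 0.08 (-0.35 to 0.52, adjusted p = 0.865). In arrays, KD1 lay above scrambled without overlap for Dppa5a, Tcl1, Fbxo15 and L1td1, as for 26% of all genes, and below it for Dppa2 and Dppa3, as for 30.6%.

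Single arrays decided the calls in RA. Without RA KD1 replicate 1, 0 of the 10 genes were called, with adjusted p of 0.0779 for L1td1, 0.0855 for Fbxo15, 0.129 for Dppa3 and 0.162 for Tcl1. Without RA KD1 replicate 2, Dppa3 alone was called. Without RA Scrambled replicate 1, L1td1 (0.83, adjusted p = 0.0643), Tcl1 (0.84, adjusted p = 0.16) and Dppa3 (adjusted p = 0.0676) were lost while Fbxo15 stood at 0.81 and was called. Utf1 (-1.34) and Dppa2 (-0.91) were then called lower. Without RA Scrambled replicate 2, Dppa3 was lost (-0.76), and Dppa5a (1.07) and Pou5f1 (0.67) were called higher. Counts over all genes also moved with each array left out and are given at the end. With the spread pooled over 12 arrays 0 were called, where 2.32% of all genes were called. An unadjusted p below 0.05 was seen in 0 of the 10, against 2438 of all 19938 genes.

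Extraembryonic endoderm markers moved with this comparison. Of 10 measured, 9 were higher in RA KD1 than in RA Scrambled and 0 lower, among them Cubn (4.26), Lama1 (3.71) and Sox7 (3.41). The median level of the 10 markers was 8.90 and 9.03 in RA Scrambled and 12.14 and 12.11 in RA KD1, and in growing cells 7.31 and 7.38 in scrambled against 8 and 8.03 in KD1. Fibroblast markers (0 higher, 3 lower of 9), trophoblast markers (0 and 2 of 9) and neuronal markers (0 and 2 of 9) also differed. Their part in the values of the 10 genes was not tested. In these bulk samples fewer cells that hold a transcript and less of it per cell cannot be told apart.

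**Figure D3:**
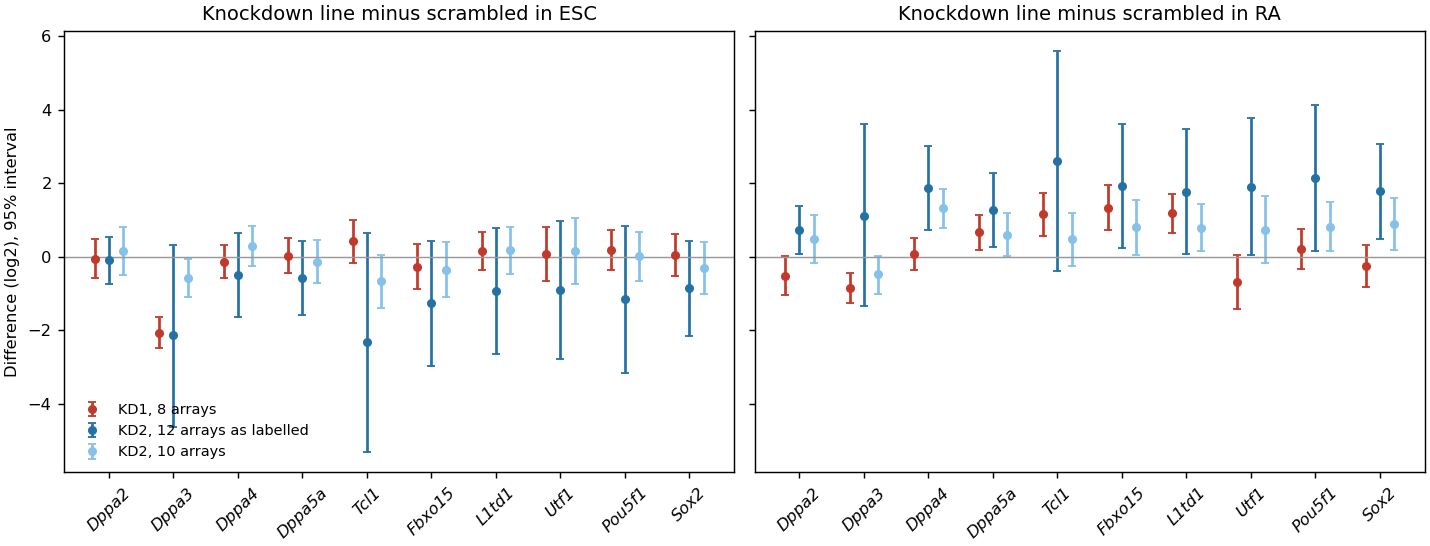
Knockdown line minus scrambled (log2) for each of the 10 genes in ESC (left) and RA (right): KD1 from 8 arrays, KD2 from all 12 arrays as labelled, and KD2 from the 10 arrays without the displaced ones; points are estimates and bars 95% intervals. In ESC the KD1 interval of Dppa3 (-2.49 to -1.65) lies below 0 while the other 9 include it. KD2 as labelled has wider intervals than KD2 from 10 arrays for every gene but Dppa2, whose intervals are alike in width.

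The change from ESC to RA differed between KD1 and scrambled cells in 2 of the 10 genes, both falling less in KD1. For Fbxo15 the difference of the changes was 1.60 (SE 0.38, 95% interval 0.74 to 2.46, adjusted p = 0.0493). Dppa3 gave 1.22 (SE 0.26, 0.62 to 1.81, adjusted p = 0.0333), and its second probe set 1.78 (adjusted p = 0.0128). All RA readings of Dppa3 in these lines (6.79, 6.98, 5.77 and 6.30) lie below the array medians, no detection call or background level was used here, and whether a floor limited its fall in KD1 was not tested. The 2 of 10 called compare with 4.82% of all genes called and 2.53% called higher. KD1 minus scrambled was -0.27 for Fbxo15 in growing cells and 1.33 after RA, whereas for Dppa3 it was -2.07 in growing cells and -0.85 after RA. L1td1 stood at 1.03 (SE 0.33, adjusted p = 0.131) and was called with the replicate block (adjusted p = 0.0138). Tcl1 (0.73, adjusted p = 0.359), Dppa5a (0.64, adjusted p = 0.315), Utf1 (-0.75, adjusted p = 0.465), Dppa2 (-0.46), Sox2 (-0.31), Dppa4 (0.21) and Pou5f1 (0.02) were not called.

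Both interaction calls lay close to the threshold. Dppa3 lost its call without ESC Scrambled replicate 2, either ESC KD1 array, either RA Scrambled array or RA KD1 replicate 2 (adjusted p from 0.0608 to 0.132). Fbxo15 lost it without either ESC Scrambled, either ESC KD1 or either RA KD1 array (adjusted p from 0.0516 to 0.185), among genes above the median level (adjusted p = 0.0512) and without the intensity trend (adjusted p = 0.0676). With the spread pooled over 12 arrays 0 were called, where 0.261% of all genes were called. An unadjusted p below 0.05 was seen in 0 of the 10, against 1601 of all 19938 genes.

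In the KD2 line the 10 genes went with the state that an array's other genes resembled, not with its label. ESC KD2 replicate 1 read 12.77 for Pou5f1, 12.47 for Sox2, 13.19 for Utf1, 11.80 for Fbxo15 and 10.61 for Tcl1. The array labelled ESC KD2 replicate 2 read 10.42, 11.34, 11.07, 9.97 and 7.30 for the same genes. RA KD2 replicate 1 read 10.20 for Pou5f1, 10.95 for Sox2, 10.78 for Utf1, 9.88 for Fbxo15 and 7.03 for Tcl1, and the array labelled RA KD2 replicate 2 read 12.83, 12.75, 13.12, 12.13 and 11.29. The displaced RA array thus lay within the range of the ESC arrays other than the displaced one for all of these genes. The displaced ESC array lay within the range of the RA arrays other than the displaced one for Fbxo15 and Tcl1. For Pou5f1, Sox2 and Utf1 it lay above all of those RA arrays, though nearer to them than to the ESC arrays.

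The remaining genes showed the same exchange. Dppa3 read 9.20 and 6.06 in the ESC KD2 arrays (replicate 1, then the displaced array) and 6.40 and 9.61 in the RA KD2 arrays. Dppa4 read 10.98 and 9.42, then 9.42 and 10.54. L1td1 read 11.10 and 8.87, then 8.63 and 10.60. Dppa5a went from 13.34 to 12.44 and from 12.28 to 13.63. Dppa2 went from 12.84 to 12.34 and from 12.15 to 12.61, the narrowest exchange of the 10 by the probe sets used. The second Dppa2 probe set went from 11.04 to 9.93 and from 9.43 to 10.36. The 12.34 of Dppa2 lay between the states, below the other ESC arrays and above the RA arrays that were not displaced. Between the replicate 1 arrays the RA minus ESC difference was below 0 for all 10 genes, from -0.69 for Dppa2 to -3.58 for Tcl1. Between the arrays labelled replicate 2, it was above 0 for all 10, from 0.27 for Dppa2 to 3.99 for Tcl1.

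As labelled, KD2 gave no call among the 10 genes. Against scrambled, 0 of 10 were called in ESC and 0 had an unadjusted p below 0.05, against 2057 of all genes, where 0.0853% were called, and the median of the 10 was -0.92. In RA 0 of 10 were called and 8 had an unadjusted p below 0.05, as had 2590 of all 19938 genes, of which 0.271% were called, and the median was 1.83. KD1 against KD2 gave 0 of 10 in ESC (0 with an unadjusted p below 0.05, against 3318 of all genes, 0.13% called) and 0 of 10 in RA (4 with an unadjusted p below 0.05, against 2692 of all genes, 1.34% called). With the replicate block Dppa2 was called lower in RA KD1 than in RA KD2 (-1.23, adjusted p = 0.0339). Without RA KD2 replicate 1, the displaced array alone is the RA KD2 group. Calls with each array left out are given at the end, followed by the counts over all genes.

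Without the displaced arrays each state has 1 KD2 array, taken to share the spread of the remaining groups. Dppa4 was then higher in RA KD2 than in RA Scrambled, at 9.42 against 7.86 and 8.34 (log2 1.32, SE 0.24, 95% interval 0.78 to 1.85, adjusted p = 0.0426), the 1 of 10 called, where 0.326% of all genes were called higher. Sox2 (0.89), Pou5f1 (0.82), Fbxo15 (0.80), L1td1 (0.79), Utf1 (0.74), Dppa5a (0.59), Dppa2 (0.49) and Tcl1 (0.47) also stood above scrambled but were not called. Dppa3 stood at -0.48 and was not called either. Thus 9 of the 10 were above 0 and 1 below, with a median of 0.77 beside 0.03 over all genes, all from 1 RA KD2 array. In ESC 0 of 10 were called against scrambled and 1 had an unadjusted p below 0.05, where 0.988% of all genes were called. Dppa3 stood at -0.57 there (SE 0.23, 95% interval -1.09 to -0.06, adjusted p = 0.362).

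Set directly against each other without the displaced arrays, the knockdown lines differed in Dppa3 among growing cells and in Dppa4 after RA. Dppa3 was lower in ESC KD1, at 7.69 and 7.72 against 9.20 in ESC KD2 (log2 -1.5, SE 0.23, adjusted p = 0.0144), where 1.67% of all genes were called lower. Dppa4 was lower in RA KD1, at 8.22 and 8.15 against 9.42 in RA KD2 (log2 -1.24, SE 0.24, adjusted p = 0.0237), where 1.31% were. The low Dppa3 of growing KD1 cells was therefore not shared in size by the KD2 array. Tcl1 in ESC (1.09, adjusted p = 0.142) and Sox2 (-1.14, adjusted p = 0.0915), Utf1 (-1.42, adjusted p = 0.102) and Dppa2 (-1, adjusted p = 0.108) in RA were not called. Extraembryonic endoderm markers moved with this comparison too: in RA 9 of 10 were higher in KD1 than in KD2 and 0 lower (median 1.83), and in ESC 0 were higher and 3 lower (median -0.15). Trophoblast markers were lower in ESC KD1 for 4 of 9 (median -0.96), and 0 of 9 were called in RA. Neuronal markers gave 2 lower of 9 in ESC and 1 in RA, and fibroblast markers 0 of 9 in ESC and 1 higher and 2 lower in RA. Their part in the Dppa3 and Dppa4 differences was not tested. Both knockdown lines are compared with the same scrambled arrays, so their differences from scrambled are not independent.

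The 2 RA Scrambled arrays differed from each other in all 10 genes in 1 direction. Replicate 2 was higher by 1.32 for Utf1, 1.04 for Fbxo15, 0.92 for Pou5f1, 0.82 for Sox2 and Dppa5a, 0.80 for Dppa2, 0.70 for L1td1, 0.63 for Tcl1, 0.47 for Dppa4 and 0.18 for Dppa3. The median of these was 0.81, beside a median absolute difference of 0.12 over all genes. Other pluripotency network genes were higher in replicate 2 in 17 of 20 cases (median 0.26), and other transcripts of embryonic stem cells in 11 of 11 (median 0.38), against 47.2% of all genes. The remaining lists leaned the same way, with smaller medians except for the germline genes: germline genes in 7 of 8 (median 0.40), extraembryonic endoderm markers in 7 of 10 (0.17), relatives of the 10 genes in 11 of 16 (0.10), protein partners in 7 of 10 (0.03), retinoic acid response genes, trophoblast and fibroblast markers in 6 of 9 each, and neuronal markers in 5 of 9. Of the other genes called lower in RA in KD1 cells 59.8% were higher in replicate 2, and of the genes called higher there 37.1%. In the other scrambled and KD1 groups replicate 2 was higher for 5 of the 10 genes in ESC Scrambled, 5 in ESC KD1 and 1 in RA KD1. Each RA comparison with scrambled cells holds this gap in its spread, and each RA Scrambled array is 1 of 2.

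**Figure D4:**
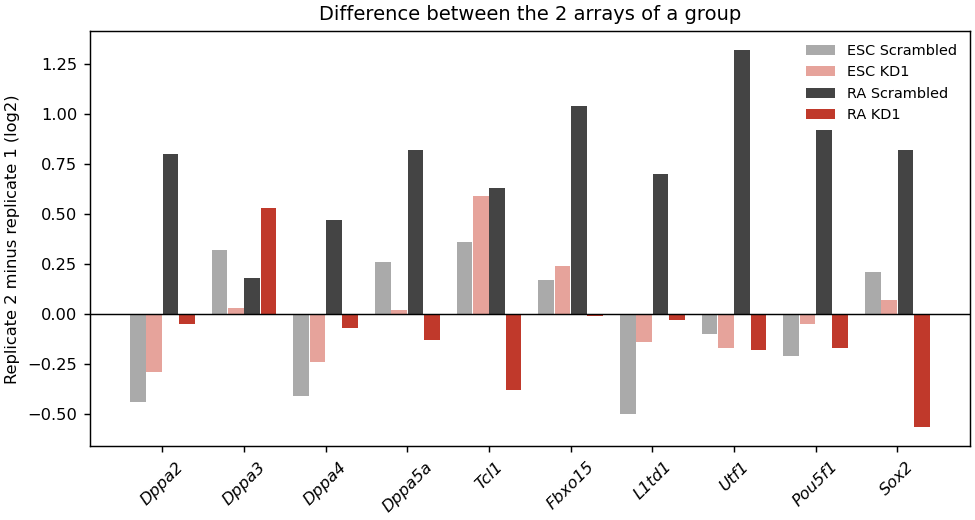
Replicate 2 minus replicate 1 (log2) for each of the 10 genes in ESC Scrambled, ESC KD1, RA Scrambled and RA KD1 (bars). The RA Scrambled bars are above 0 for all 10 genes, from 0.18 for Dppa3 to 1.32 for Utf1, while the bars of the other groups fall on both sides.

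Other genes of the pluripotency network were mostly lower in RA as well, and after RA they differed between the lines in both directions. Of 20 network genes outside the 10, 19 fell and 0 rose from ESC to RA in scrambled cells (median -1.89), with the nuclear receptor gene Nr0b1 (-4.17), the Nodal co-receptor gene Tdgf1 (-3.98) and the nuclear receptor gene Esrrb (-3.91) in front, and 16 fell and 0 rose in KD1 cells (median -1.89). In growing cells 0 of 20 were called between KD1 and scrambled, Klf5 being the most changed (0.70, adjusted p = 0.0977). After RA 6 were higher and 2 lower in KD1 (median -0.14). The Krüppel-like factor genes Klf4 (1.5, SE 0.13, adjusted p = 0.000191) and Klf5 (1.38, adjusted p = 0.00144) were higher, and Nanog, a core factor beside Oct4 and Sox2, was lower (-1.35, SE 0.29, adjusted p = 0.0166).

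Other transcripts of embryonic stem cells gave 10 lower and 0 higher of 11 measured in scrambled cells (median -2.91), among them Dnmt3l (-3.50), a cofactor of DNA methylation, the growth factor gene Fgf4 (-3.26) and Eras (-3.24). KD1 cells gave 10 lower and 0 higher (median -2.89). After RA, Dnmt3l was higher in KD1 than in scrambled cells (1.29, adjusted p = 0.00218), and Gdf3, the neighbour of Dppa3 (-1, adjusted p = 0.00536), and Fgf4 (-0.82, adjusted p = 0.0061) were lower, with 1 higher and 4 lower in all.

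Some germline and early embryonic genes reported downstream of Dppa2 and Dppa4 changed from ESC to RA. Of 8 measured, 3 fell in scrambled cells, Sycp3 (-3.64), Mael (-0.70) and Syce1 (-0.42), and 0 rose. Over all genes 42.6% were called there and 20.8% were called lower. In KD1 cells Sycp3 fell (-3.09) and Tdrkh rose (0.75, adjusted p = 0.0104), where 41% of all genes were called. Between KD1 and scrambled, 0 were called in growing cells (median -0.46), where 1.94% of all genes were. Mael, a germline gene of transposon control, was higher after RA (0.90, adjusted p = 0.0118), where 5.39% of all genes were called higher.

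Relatives of the 10 genes did not share 1 direction. Of 16 measured, 3 rose and 3 fell from ESC to RA in scrambled cells, and likewise in KD1. Over all genes 42.6% were called in scrambled cells, 21.7% higher and 20.8% lower, and 41% in KD1 cells. Sox4 (3.07) and Sox11 (2.33), SOX factors of differentiating cells, rose in scrambled cells where Sox2 fell, and Ooep, the oocyte gene beside Dppa5a, fell (-2.88). After RA, Sox11 (-0.80, adjusted p = 0.00262) and Sox4 (-0.54, adjusted p = 0.0478) were lower in KD1. Of 10 measured genes for protein partners, 3 rose and 5 fell in scrambled cells. Tet3, the oxidase of methylated DNA that Dppa3 counteracts (2.47), and Akt1, the kinase that Tcl1 activates (1.49), rose, and Eed, a Polycomb subunit (-1.21), fell. Of these partners Ezh2 alone was called between KD1 and scrambled cells after RA (-0.25, adjusted p = 0.0426).

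Over the 12 arrays the genes outside the 10 whose pattern was most like the mean of the 10 were Zfp42 (Pearson r = 0.996), Reep6 (0.995), Terf1 (0.994), Anapc15 (0.994) and Pla2g1b (0.993), of 6016 genes with a range of at least 1 log2 unit. Zfp42, also called Rex1, is a zinc finger gene used as a marker of undifferentiated cells. It read 11.38 to 11.59 in the scrambled and KD1 arrays of ESC and 7.13 to 8.27 in those of RA. By gene, the nearest was Rcor2 for Dppa2 (0.975), Mlxipl for Dppa3 (0.986), Pnldc1 for Dppa4 (0.992), Upp1 for Dppa5a (0.991), Sgk1 for Tcl1 (0.992), Triml2 for Fbxo15 (0.991), Zpr1 for L1td1 (0.996), Tdgf1 for Utf1 (0.996), Zfp42 for Pou5f1 (0.996) and Ooep for Sox2 (0.993). The arrays form an ESC and an RA cluster, so these values describe mostly that contrast and carry no test.

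In order of group means, ESC Scrambled or ESC KD1 was the highest group for all 10 genes and RA Scrambled or RA KD1 the lowest. The highest and the next group overlapped in their arrays except for Fbxo15 and Pou5f1, and the lowest and the next overlapped for Dppa4, Utf1, Pou5f1 and Sox2. The KD2 groups as labelled lay between, with the RA KD2 mean above that of ESC KD2 for Dppa3, Dppa5a, Tcl1 and Fbxo15.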

How the data were processed

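The 12 Affymetrix arrays were hybridised with biotinylated cRNA made from 300 ng of total RNA, per the labels' protocols. The submitters' processing notes name RMA, and the values deposited by the authors are on the log2 scale with 1 value per probe set; no RMA version is given in the sources used here. The table held 35556 probe sets, of which 23410 were annotated, 21789 with 1 gene symbol. Each gene took its brightest probe set with 1 symbol (19938 genes).

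Limma 3.58.1 in R 4.3.3 was run with empirical Bayes moderation and an intensity trend, two-sided, with Benjamini-Hochberg adjustment over all genes. Comparisons of scrambled and KD1 cells used 8 arrays (4 residual and 4.94 prior degrees of freedom), and comparisons with KD2 used all 12 (6 and 2.76). Groups came from the labels. The labels call the replicates biological but name no separate cultures, so p-values cover the spread between these arrays only. The 10 genes, the other gene lists, the tests and the choice of 8 arrays were set with earlier results of these data known, so the lists are described by counts and medians only. The 10 genes are named throughout; of each list at most 3 called genes with the largest change are named (otherwise the most changed one), and for likeness the 5 genes nearest the mean and 1 per gene. The scripts were tested on simulated data. Figures were drawn with matplotlib 3.10.9.

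The labels number the replicates. Differences between replicates correlated at 0.141 to 0.633 for the 6 pairs of groups within a state, but at no more than 0.197 within RA. Between states they correlated at -0.864 to 0.105, where the -0.864 is between the KD2 groups, which hold the displaced arrays. The replicate block treats equal numbers as pairing arrays within a state and is given as an alternative where it changed a call. Whether equal numbers mark a shared batch was not tested.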

Additional observations from a re-analysis of the deposited data

Results flagged for a closer look

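The change from ESC to RA differed between KD1 and scrambled cells by the test of the difference itself for Dppa3 (1.22, SE 0.26, adjusted p = 0.0333 by limma) and Fbxo15 (1.60, SE 0.38, adjusted p = 0.0493). Dppa3 fell by 2.89 in scrambled and by 1.67 in KD1 cells, from ESC values that were already 2.07 lower in KD1; its RA readings lie below the array medians, and whether a floor limited the fall was not tested. Fbxo15 fell by 3.08 in scrambled and by 1.48 in KD1 cells, from ESC values 0.27 lower. The extraembryonic endoderm markers rose by a median of 1.37 in scrambled and 3.44 in KD1 cells over the same change, and their part was not tested.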

How the results depend on the processing

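The fall of the 10 genes from ESC to RA kept its direction under every alternative run, and 9 to 10 were called in scrambled cells; in KD1 cells 5 were called with all 12 arrays and 10 under every other alternative. For KD1 against scrambled in ESC 1 gene was called, 0 with all 12 arrays and 1 without each array in turn. In RA 4 were called, 0 with all 12 arrays and 0 to 5 without each array in turn. For the interaction 2 were called, 0 with all 12 arrays, 1 among genes above the median level, 1 without the intensity trend, and 0 to 3 without each array in turn. For KD2 against scrambled in RA 0 were called, 1 with 10 arrays and 0 to 6 without each array in turn, 6 without RA KD2 replicate 1. For KD1 against KD2 1 was called with 10 arrays in ESC; in RA 1 was called with 10 arrays, 1 with the replicate block (Dppa2) and 0 to 5 without each array in turn, 5 without RA KD2 replicate 1. The replicate block changed no call of the 10 genes other than those given with the results. No call changed direction. Without RA KD2 replicate 1, the RA KD2 group is the displaced array alone, whose other genes resembled ESC. The counts for that setting thus compare an ESC-like array with RA arrays. The share of all genes called is not set beside them, so they are not read as results on the 10 genes or the KD2 line.

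Counts over all genes moved more. With all 12 arrays they went from 8485 to 2751 (RA against ESC, scrambled), 8183 to 2249 (the same in KD1), 387 to 13 (KD1 against scrambled in ESC), 2408 to 463 (in RA) and 961 to 52 (interaction). The replicate block gave 2100, 4797 and 2874 for the last 3, 2 for KD2 against scrambled in ESC (17 without the block) and 0 for KD1 against KD2 in ESC (26 without it). With 10 arrays KD2 against scrambled gave 197 in ESC and 192 in RA (54 as labelled), and KD1 against KD2 gave 437 in ESC and 742 in RA (268 as labelled). Genes above the median level gave 4 and 7, and no intensity trend 9 and 32, for KD2 against scrambled in ESC and RA. Without each array in turn the counts ran from 131 to 576 (KD1 against scrambled in ESC), 726 to 2965 (in RA), 303 to 1156 (interaction), 3 to 57 (KD2 against scrambled in ESC), 4 to 1018 (in RA), 0 to 202 (KD1 against KD2 in ESC), 30 to 1254 (in RA) and 5550 to 8738 (RA against ESC in KD1). The 12-array fits add the spread of the displaced arrays; other causes were not tested. With 2 arrays per group, small differences of single genes could not be resolved.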
